A study of Mus musculus with 12 samples.

Results

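Splicing regulators and heterogeneous nuclear ribonucleoproteins (hnRNPs) were followed in bulk RNA sequencing of mouse heart tissue. The members are the genes whose symbol is Srsf, Hnrnp or Rbm with its number or letter, or Clk1 to Clk4, and Ilf2 is also among them. These symbols matched 76 of the 33615 genes of the deposited table and 571 of its 104952 transcripts: 11 SR proteins, 4 CLK kinases, 20 hnRNPs, 39 RBM proteins and the remainder, with Ilf2. Each of the 3 groups had 4 libraries: sham-operated hearts (Sham), hearts exposed to ischemia for 30 min and then reperfused for 2 h (I/R), and hearts that received ML264, a small-molecule inhibitor of the transcription factor KLF5, with the same injury (I/R + ML264). The sources used here do not give strain, sex, age or the dose, route and timing of ML264. Whether the libraries are separate animals is not stated either, and p-values then refer only to the variation among them, which may be technical.

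SR proteins carry RNA-recognition motifs and a domain rich in arginine and serine, bind exons and help the spliceosome to recognise splice sites. CLK kinases phosphorylate that domain and so set where SR proteins reside in the nucleus and how active they are. The hnRNPs coat nascent transcripts and often oppose exon inclusion, while the RBM family is a loose collection of RNA-binding proteins that includes RBM20 and RBM24, known for splicing of sarcomere genes in cardiomyocytes. ILF2 is part of a double-stranded RNA-binding complex. Many of these genes make transcripts with a retained intron or a premature stop codon, and the annotation classed 161 of the member transcripts as retained_intron and 65 as nonsense_mediated_decay.

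The libraries held 22.26 to 29.93 M (mega) estimated counts, and 73 of the 76 members passed the filter on low counts. The other 3, Rbm31y, Rbm44 and Rbm46, had at most 25 counts in any library, and Rbm31y had 0 in all 12. The tissue label was met by the summed level of 8 cardiomyocyte markers, 22372 to 28292 CPM (counts per M, scaled by library). Ddx3y, a Y-linked gene, stood at 38.8 to 52 CPM in 8 libraries and at 0.106 to 0.484 CPM in I/R libraries 1 and 4 and I/R + ML264 libraries 1 and 2. Arntl, a clock gene, was at 1.05 to 3.26 CPM in 9 libraries and at 10.4 to 15.3 CPM in I/R library 1 and Sham libraries 2 and 3. The median coefficient of variation within a group was 10% over the 73 members and 17.3% over all genes tested. CPM values carry no correction for transcript length and are not compared between genes here.

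Injury was followed by a rise in a minority of the splicing regulators. In I/R against Sham, 12 of the 73 members tested (16.4%) passed an adjusted p under 0.05 in edgeR's quasi-likelihood test, against 7.75% of the 15952 genes tested. Of these, 10 were higher, where 4.58% of all genes were, and 2 were lower, where 3.17% were. The median log2 fold change was 0.09 over the members and 0.00 over all genes, and 52 members (71.2%) had a positive value, against 50.3% of all genes. The members that rose were Ilf2, Rbm25, Rbm39, Rbm24, Srsf11, Srsf5, Rbm28, Hnrnpa3, Hnrnpa1 and Hnrnpk, and those that fell were Rbm5 and Rbm10. With upper-quartile scaling 8 members and 1296 of all 15952 genes were called, and the share of higher genes among all calls was 47.8% in place of 59.1%. In bulk tissue, fewer cells of a type and less RNA per cell cannot be told apart.

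**Figure D1:**
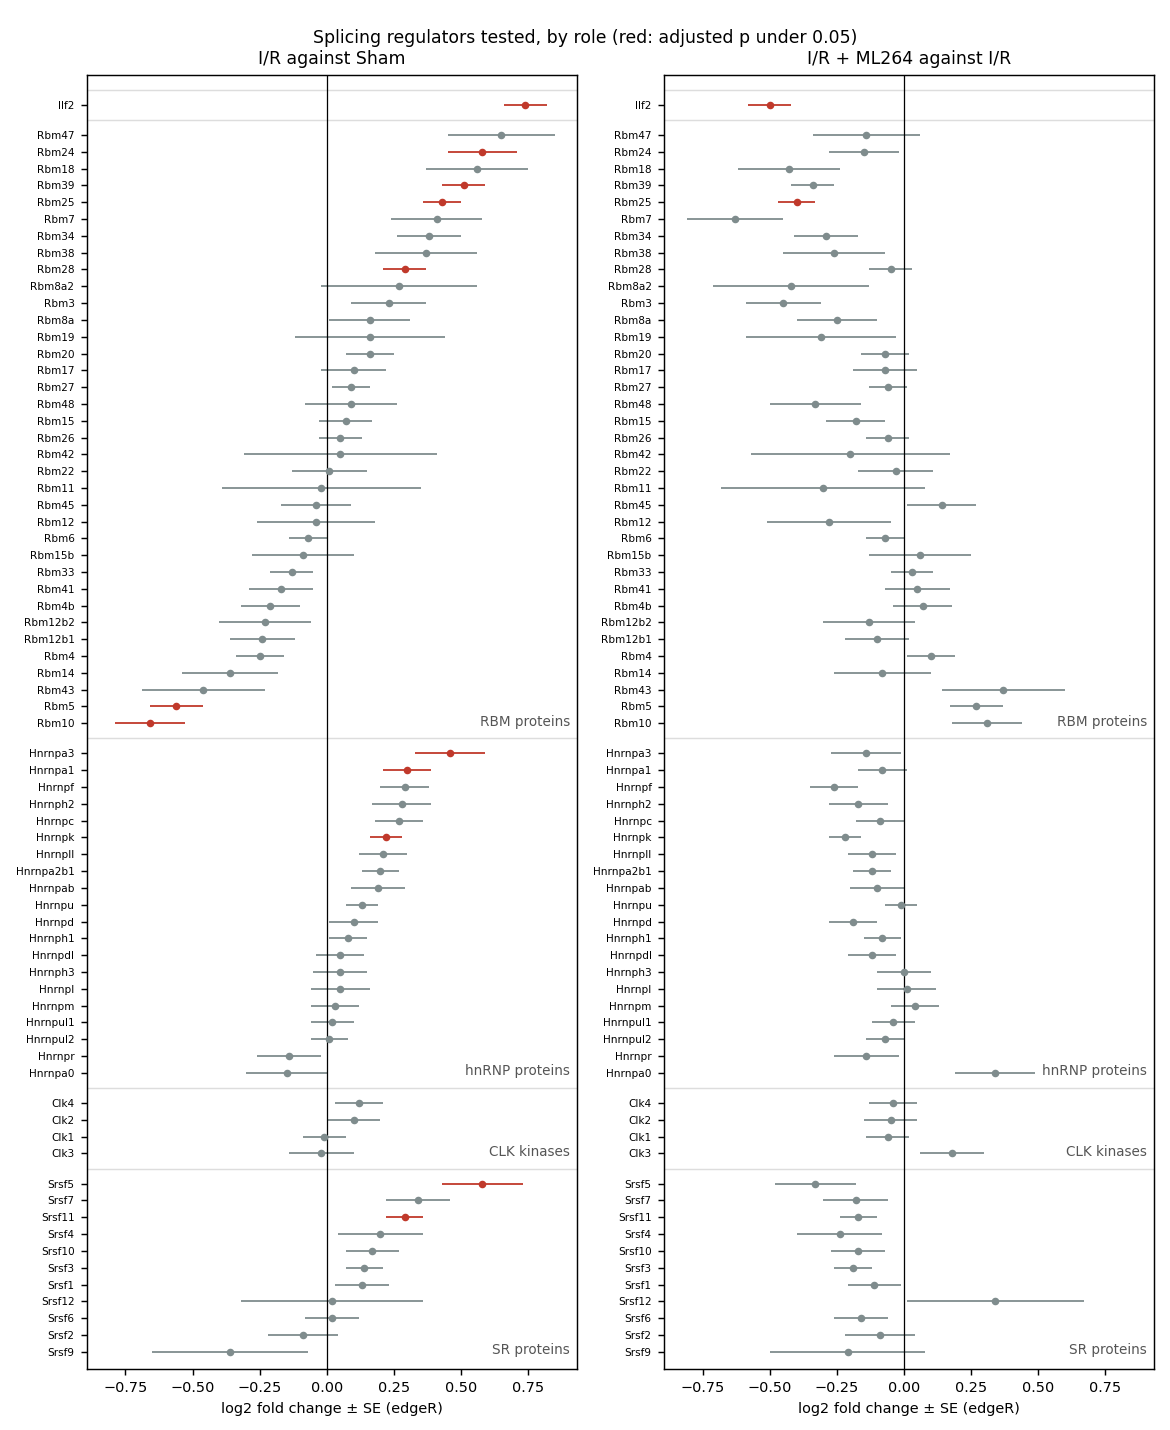
Log2 fold change with its SE (horizontal axis, edgeR) of 72 of the 73 members tested, grouped by role and ordered by the I/R against Sham value, for I/R against Sham (left) and I/R + ML264 against I/R (right); red marks an adjusted p under 0.05. The 12 red points on the left comprise 10 higher and 2 lower members, and both red points on the right, Ilf2 and Rbm25, are lower; the panels share the I/R libraries.

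Ilf2 had the smallest adjusted p among the members. It encodes a subunit of a double-stranded RNA-binding complex (chromosome 3, 90476126 to 90488379, plus strand, GRCm38). Its level was 35.6, 34.8, 32.4 and 36.7 CPM in the Sham libraries, 54.3, 59, 62.4 and 57.4 CPM in I/R, and 36, 42.9, 43.3 and 43.1 CPM in I/R + ML264. Every I/R library lay above every library of the other groups. I/R exceeded Sham by a log2 fold change of 0.74 ± 0.08 (SE; edgeR, adjusted p = 0.000158). The value was -0.50 ± 0.08 for I/R + ML264 against I/R (edgeR, adjusted p = 0.0347) and 0.24 ± 0.08 for I/R + ML264 against Sham (edgeR, adjusted p = 0.201).

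Rbm25, whose protein works with U1 in the choice of 5′ splice sites (chromosome 12, 83631236 to 83683123, plus strand), was the other member called in both comparisons that involve I/R. It stood at 93.1, 87.7, 83.5 and 86.4 CPM in Sham, at 118, 123, 111 and 119 CPM in I/R, and at 91.4, 90.5, 84.7 and 92.3 CPM in I/R + ML264. The I/R libraries lay apart from both other groups, which overlapped. The log2 fold change was 0.43 ± 0.07 against Sham (edgeR, adjusted p = 0.00128), and I/R + ML264 differed from I/R by -0.40 ± 0.07 (edgeR, adjusted p = 0.0347) and from Sham by 0.03 ± 0.07 (edgeR, adjusted p = 0.869). These comparisons share the I/R libraries, so a set of high or low I/R values enters both.

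Rbm39, a U2AF-related splicing factor and transcriptional coactivator (chromosome 2, 156147239 to 156180238, minus strand), was at 119, 104, 97.6 and 113 CPM in Sham and at 164, 154, 146 and 153 CPM in I/R. It was at 117, 137, 115 and 119 CPM in I/R + ML264. All I/R libraries were above all others. The log2 fold change against Sham was 0.51 ± 0.08 (edgeR, adjusted p = 0.00156), and that of I/R + ML264 against I/R was -0.34 ± 0.08, with an edgeR adjusted p of 0.149.

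Rbm5 and Rbm10, related genes whose proteins join the early spliceosome and are known to favour exon skipping, were the members that fell. Rbm5 (chromosome 9, 107740371 to 107770996, minus strand) was at 131, 110, 103 and 122 CPM in Sham, at 82, 76.2, 83.7 and 73.2 CPM in I/R, and at 103, 76.9, 105 and 95.6 CPM in I/R + ML264. The Sham and I/R libraries did not overlap, and library 2 of I/R + ML264 had a value within the I/R range. The log2 fold change for I/R against Sham was -0.56 ± 0.10 (edgeR, adjusted p = 0.00364). Rbm10 (chromosome X, 20617503 to 20650901, plus strand) went from 11.2 ± 0.773 CPM in Sham to 7.06 ± 0.705 CPM in I/R (SD, n = 4), a log2 fold change of -0.66 ± 0.13 (edgeR, adjusted p = 0.00741). Its value is uncertain, because 53.5% of its 31-base sequence words also occur in transcripts of other genes, mostly the pseudogene Gm12799. Rbm6, the neighbour of Rbm5 on chromosome 9 and its relative, stood at 66.8 ± 3.43, 63.6 ± 2.62 and 60.7 ± 4.57 CPM in the 3 groups, with no call.

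Among the 11 SR proteins, 2 rose and 9 did not pass, where 4.58% of all genes were higher. The median log2 fold change was 0.14, and 9 of the 11 values were positive, against 50.3% of all genes. Srsf5 (chromosome 12, 80945504 to 80950507, plus strand) was at 235, 306, 285 and 201 CPM in Sham, at 422, 347, 344 and 422 CPM in I/R, and at 283, 386, 260 and 288 CPM in I/R + ML264. The Sham and I/R libraries did not overlap, while I/R + ML264 library 2 lay within the I/R range. The log2 fold change was 0.58 ± 0.15 (edgeR, adjusted p = 0.0296). The highest I/R values came from libraries 1 and 4, those low in Ddx3y; libraries 2 and 3, at 347 and 344 CPM, were also above every Sham library. With Ddx3y as a covariate Srsf5 was no longer called. Its log2 fold change lay between 0.46 and 0.76 over all alternatives run, that one included. Ddx3y was high in every Sham library and low in I/R libraries 1 and 4, and its part in the Srsf5 rise was not tested further. Srsf11, an SR-like protein, rose from 46.7 ± 0.902 CPM in Sham to 57.2 ± 2.2 CPM in I/R, a log2 fold change of 0.29 ± 0.07 (edgeR, adjusted p = 0.0201).

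The remaining SR proteins were below the threshold. Srsf7 came nearest, at 0.34 ± 0.12 (edgeR, adjusted p = 0.0979), with 17, 11.7, 15.8 and 14.9 CPM in Sham and 18.8, 19.9, 18.5 and 17.6 CPM in I/R. Srsf1, Srsf2, Srsf3, Srsf4, Srsf6, Srsf9, Srsf10 and Srsf12 had log2 fold changes between -0.36 (Srsf9) and 0.20 (Srsf4). Srsf4 shares 41.0% of its sequence words with other genes and is uncertain. All 4 CLK kinases, which act on these proteins, stayed below the threshold as well: the log2 fold change was -0.01 ± 0.08 for Clk1, 0.10 ± 0.10 for Clk2, -0.02 ± 0.12 for Clk3 and 0.12 ± 0.09 for Clk4.

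Of the 20 hnRNPs, 3 rose and none fell, where 4.58% of all genes were higher and 3.17% lower. A positive value was found for 18, against 50.3% of all genes, and the median was 0.12. Hnrnpa3 went from 72.6, 71.2, 83.3 and 74.1 CPM in Sham to 114, 102, 97.6 and 99.8 CPM in I/R, and was spread from 70.3 to 119 CPM in I/R + ML264. Its log2 fold change against Sham was 0.46 ± 0.13 (edgeR, adjusted p = 0.0429). Hnrnpa1, a repressor of exon inclusion, rose by 0.30 ± 0.09 (edgeR, adjusted p = 0.0439), from 52.2 ± 5.45 to 64.3 ± 5.16 CPM (SD, n = 4). Between 28.1% and 29.9% of the words of these genes are shared, with Gm5641 and Gm10052 as the main sharers, so both are uncertain. Hnrnpk, a poly(C)-binding hnRNP, went from 135, 130, 130 and 136 CPM to 153, 145, 156 and 163 CPM, a log2 fold change of 0.22 ± 0.06 (edgeR, adjusted p = 0.0468). Hnrnpa2b1, Hnrnpd, Hnrnpl and Hnrnpu gave 0.20 ± 0.07, 0.10 ± 0.09, 0.05 ± 0.11 and 0.13 ± 0.06, with edgeR adjusted p values of 0.0877, 0.56, 0.821 and 0.215.

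Calls near the threshold were often lost with 11 libraries, while their sizes stayed similar. Among the 12 calls, 5 (Ilf2, Rbm25, Rbm39, Rbm5 and Rbm10) held in each of the 12 fits that left out 1 library. The Hnrnpk call ended in 10 of them, Hnrnpa1 in 9, Hnrnpa3 in 8, Rbm28 in 6, Srsf5 in 5, Srsf11 in 3 (without Sham library 2 or 3, or I/R library 3) and Rbm24 in 1. Over all alternatives run, the log2 fold change lay between 0.17 and 0.25 for Hnrnpk, 0.24 and 0.41 for Hnrnpa1, 0.32 and 0.58 for Hnrnpa3, 0.23 and 0.33 for Rbm28, and 0.25 and 0.32 for Srsf11. Those that held in all 12 fits were also the 5 called with Ddx3y as a covariate, where 565 of all 15952 genes were called.

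Of the 36 RBM proteins tested, 4 rose and 2 fell, where 4.58% of all genes were higher and 3.17% lower. Their median was 0.06. Rbm24, which acts in splicing and stability of muscle transcripts, was at 70.3, 51.4, 40.1 and 61.6 CPM in Sham and at 85.8, 72.5, 93.1 and 82.5 CPM in I/R. The I/R + ML264 libraries, at 74.5, 70.9, 79.7 and 75.1 CPM, were also above every Sham library. The log2 fold change was 0.58 ± 0.13 (edgeR, adjusted p = 0.018), and I/R + ML264 against Sham gave 0.43 ± 0.13 with an edgeR adjusted p of 0.178. The Sham libraries with the lowest Rbm24, 2 and 3, are those with high Arntl. I/R library 1, also high in Arntl, had 85.8 CPM of Rbm24. Without Sham library 2, or with Arntl or Ddx3y as a covariate, Rbm24 was not called. Its log2 fold change lay between 0.45 and 0.71 over all alternatives run, these included, with a highest edgeR adjusted p of 0.0642. The part of Arntl or Ddx3y in the Rbm24 rise was not tested further. Rbm28, a nucleolar RNA-binding protein, rose by 0.29 ± 0.08 (edgeR, adjusted p = 0.0377), from 31.9 ± 1.89 to 38.9 ± 2.21 CPM (SD, n = 4).

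Rbm20, the regulator of titin splicing, was at 151, 179, 139 and 152 CPM in Sham and at 180, 167, 187 and 158 CPM in I/R. The groups overlapped, and its log2 fold change was 0.16 ± 0.09 (edgeR, adjusted p = 0.289). Rbm3, a cold-inducible protein, gave 0.23 ± 0.14 for I/R against Sham and -0.45 ± 0.14 for I/R + ML264 against I/R, with edgeR adjusted p values of 0.342 and 0.266. Cirbp, its close relative outside the member set, gave 0.28 ± 0.28 (edgeR, adjusted p = 0.591).

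**Figure D2:**
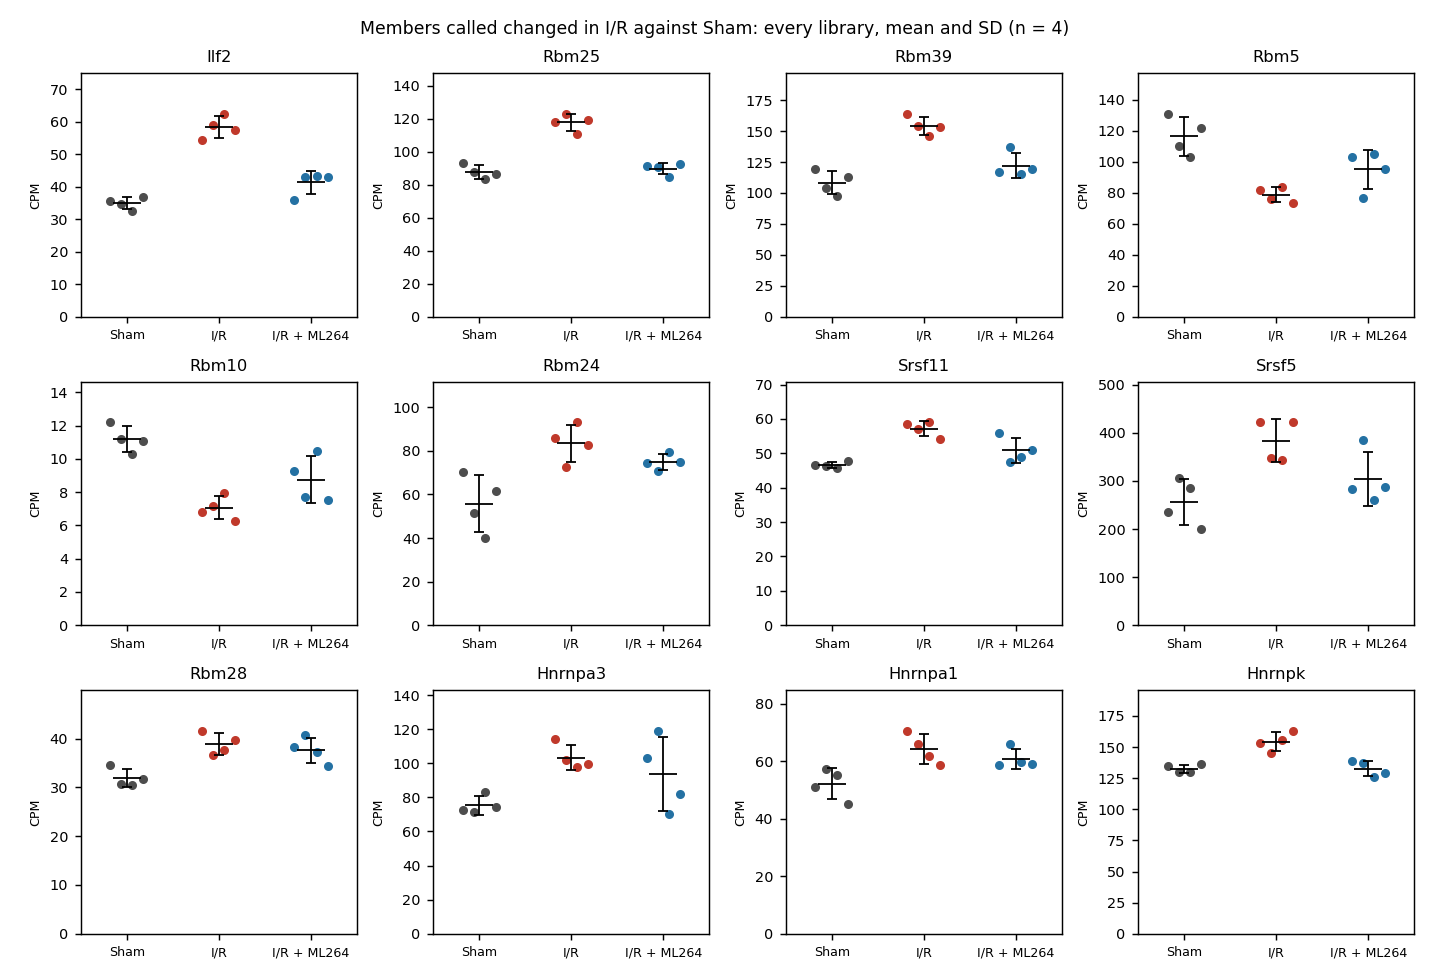
CPM in every library (points, libraries 1 to 4 from left to right) with the mean and SD (bars, n = 4) for the 12 members called in I/R against Sham, in order of adjusted p. In each panel the Sham and I/R points do not overlap; Ilf2, Rbm25, Rbm39 and Hnrnpk also have no overlap between I/R and I/R + ML264.

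ML264 was given to ask what inhibiting KLF5 changes in the injured heart. In I/R + ML264 against I/R, 2 of the 73 members were called, Ilf2 and Rbm25, both lower, where 8 of the 15952 genes tested (0.0502%) were called at all and 0.0376% were lower. The median log2 fold change was -0.11 over the members and 0.00 over all genes. A positive value was found for 14 members (19.2%), against 50% of all genes. The comparison of I/R against Sham uses the same I/R libraries, so this shift is not independent of the rise there. Neither call held when only the 2 groups compared were fitted, and without I/R + ML264 library 1 no gene at all was called. Leaving out single libraries ended the Ilf2 call in 10 of 12 fits and the Rbm25 call in 9, although their log2 fold changes stayed between -0.53 and -0.43 and between -0.43 and -0.37 over all alternatives. Without I/R + ML264 library 2, the count was 3 of the members and 85 of all genes.

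Overlap between groups was counted as well, on the scaled CPM values and without a fitted model. Groups separate more easily where the spread within them is small. The median coefficient of variation within a group was 10% over the members and 17.3% over all genes, so the shares are not matched for spread. In I/R against Sham, 18 members (24.7%) had every I/R library above every Sham library, where 8.54% of all genes did, and 3 (4.11%) had every one below, where 7.25% did. In I/R + ML264 against I/R, 6 members (8.22%) lay wholly below, where 3.08% of all genes did: Ilf2, Rbm25, Rbm39, Hnrnpk, Hnrnpa2b1 and Rbm7. None lay wholly above, where 2.54% did. Both comparisons share the I/R libraries, so their counts are not independent.

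No member was called in I/R + ML264 against Sham by edgeR or by DESeq2, where edgeR called 0.288% of all genes; 12 of the 73 (16.4%) had an unadjusted p under 0.05, as did 13% of all genes. The median log2 fold change over the members was -0.01. The 4 members without overlap and higher in I/R + ML264 were Rbm24, Hnrnpu, Hnrnpa1 and Srsf12, where 3.99% of all genes were such, and the 3 lower were Rbm33, Rbm12b1 and Rbm14, where 3.37% were. Rbm12b1 is uncertain, since it shares 69.3% of its words with other genes, mostly Rbm12b2.

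Other parts of the splicing machinery were counted from lists chosen for their function. Over all genes, 4.58% were higher and 3.17% lower in I/R against Sham. Of 37 core spliceosome genes, 4 rose and 0 fell in that comparison, with a median of 0.12. The risers included Sf3b1 and Sf3b6, subunits of the U2 complex that binds the branch site, and Prpf38a. Sf3b1 was at 126 ± 14.3 CPM in Sham and 189 ± 8.69 CPM in I/R (SD, n = 4), a log2 fold change of 0.59 ± 0.09 (edgeR, adjusted p = 0.0017). Of 43 other splicing regulators, 10 rose and 1 fell, with a median of 0.13. The SR-like regulator Tra2b had the smallest adjusted p, rising by 0.66 ± 0.10 (edgeR, adjusted p = 0.00085) from 28.9 ± 3.59 to 45.6 ± 3.64 CPM. Bclaf1 rose by 0.59 ± 0.10 and the RNA helicase gene Ddx5 by 0.47 ± 0.08, while Tia1, which promotes the use of weak 5′ splice sites, fell by 0.36 on the log2 scale. None of 7 SR protein kinase and import genes and none of 14 genes of nonsense-mediated decay and the exon junction complex passed; edgeR called 7.75% of all genes there. In the 2 comparisons with I/R + ML264, no gene of these 4 lists was called. Over all genes, 0.0502% were called against I/R and 0.288% against Sham.

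Single markers of other cell types were called as well, where 3.17% of all genes were lower and 4.58% higher in I/R against Sham. Of 6 endothelial markers, Kdr and Tek were lower in I/R than in Sham, and the summed level of the list was 428 to 521 CPM in Sham, 354 to 415 CPM in I/R and 363 to 455 CPM in I/R + ML264. Pdgfrb of 6 mural cell markers was also lower, but 4 of the 6 had positive values and the list median was 0.12. Adgre1 of 7 macrophage markers was lower as well, with a list median of -0.14. The summed levels of both lists overlapped between Sham and I/R. The neutrophil markers Trem1 and Clec4d, 2 of 7, were higher but near the floor. They were at most 0.0705 and 0.181 CPM in Sham, with means of 0.576 and 0.944 CPM in I/R. All 7 neutrophil markers summed to 4.72 to 7.17 CPM in Sham, 7.65 to 18.2 CPM in I/R and 4.9 to 19.8 CPM in I/R + ML264. The cardiomyocyte marker Tnnt2 of 8, of which 5 had positive values, was higher too. Platelet markers summed to 139 CPM in I/R library 4 and 105 CPM in I/R + ML264 library 4 and to 1.88 to 25 CPM elsewhere. No list of 11 had all its markers at 0, and the part of these cell types in the member changes was not tested.

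Promoter windows from RefSeq (GRCm38.p6, 250 bases before the RefSeq start) were found for 63 of the 76 members, and letter motifs were searched on both strands. For 7 of them, Rbm25 and Hnrnpk included, that start lies over 1000 bases inside the gene as GENCODE gives it. TGACG, the core of the cAMP response element, was in 46% of the member windows and in 17.9% of all 27025 windows; every full element TGACGTCA holds it, and that was in 1.59% and 1.62%. CCAAT was in 47.6% against 34.5%, and the GC box GGGCGGGG, the kind of site KLF proteins bind, in 30.2% against 16.3%. The heat shock element GAANNTTC was in 4.76% against 6.78% and the E-box CACGTG in 9.52% against 6.05%. Among the 12 members called in I/R against Sham, 6 held TGACG, 6 held CCAAT and 3 held GGGCGGGG. The comparison is with every RefSeq window, whether or not its gene was among those tested here, so the shares are not matched for expression. A match describes the letters and shows no binding. Windows of 3 members are shown: Ilf2, the member with the smallest adjusted p, Srsf5, the SR protein with the larger rise, and Rbm5, the clearer of the members that fell; capitals mark CCAAT, GGGCGGGG or TGACG on either strand.
Ilf2, chr3:90475951-90476200, plus strand: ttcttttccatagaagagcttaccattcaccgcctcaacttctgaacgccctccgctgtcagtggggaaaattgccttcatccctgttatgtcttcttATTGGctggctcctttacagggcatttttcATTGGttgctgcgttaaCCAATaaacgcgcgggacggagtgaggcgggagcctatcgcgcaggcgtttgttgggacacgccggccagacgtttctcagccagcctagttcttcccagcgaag
Srsf5, chr12:80945249-80945498, plus strand: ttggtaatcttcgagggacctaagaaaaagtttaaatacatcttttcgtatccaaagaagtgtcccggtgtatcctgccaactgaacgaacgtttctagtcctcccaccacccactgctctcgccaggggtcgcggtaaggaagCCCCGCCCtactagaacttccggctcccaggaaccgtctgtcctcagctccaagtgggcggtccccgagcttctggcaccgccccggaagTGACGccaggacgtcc
Rbm5, chr9:107771003-107771252, minus strand: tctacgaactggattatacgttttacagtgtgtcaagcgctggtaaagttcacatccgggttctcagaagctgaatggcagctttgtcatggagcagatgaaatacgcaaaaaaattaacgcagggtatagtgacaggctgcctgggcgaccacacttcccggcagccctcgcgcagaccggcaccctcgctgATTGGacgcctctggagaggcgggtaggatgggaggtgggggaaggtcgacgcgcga
The Ilf2 window holds CCAAT 3 times, 152, 122 and 105 bases before the start, and the Rbm5 window once, 57 bases before it. The Srsf5 window holds GGGCGGGG 106 bases and TGACG 16 bases before the start. The Rbm25 window, whose start lies inside the gene as given above, held none of the motifs searched and is not shown.

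Values per transcript could not be followed by identifier, because the identifiers did not name the same transcript from library to library. For Rbm5, the largest value of the gene was 62.4 to 77.9 CPM in Sham, 34.8 to 45.8 CPM in I/R and 41.6 to 57.5 CPM in I/R + ML264. In Sham libraries 1 to 4 it stood under Rbm5-223, Rbm5-210, Rbm5-207 and Rbm5-210, and in I/R libraries 1 to 4 under Rbm5-219, Rbm5-203, Rbm5-224 and Rbm5-223. Of 50 member genes with at least 200 counts in every library and more than 1 transcript, none had the same top identifier in all 12 libraries. A pair of libraries shared the top identifier in 18% of cases, and 100 divided by the number of transcripts averages 17.2%. The median SD of a transcript's share over the libraries was 16.1 percentage points by identifier and 2.14 when the values of a gene were put in order of size. The same held for all genes: 3 of 4697 had the same top identifier throughout, and of 1171 genes with over 80% of their counts in 1 transcript in every library, none did. Sums over a gene do not depend on this. The cause was not tested.

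**Figure D3:**
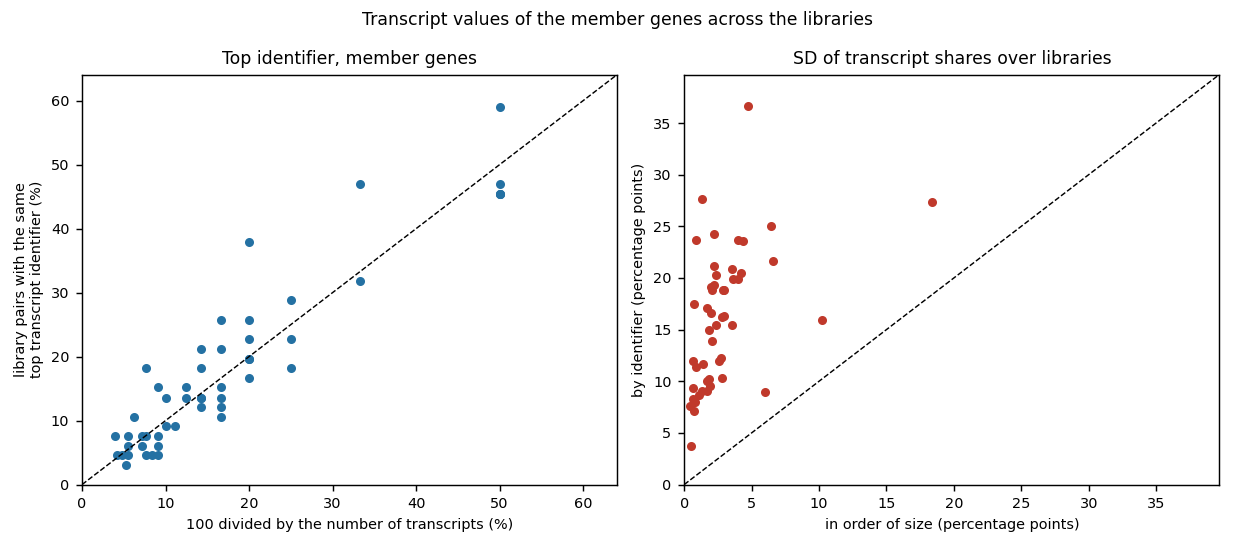
Each point is 1 of the 50 member genes. Left, the percentage of library pairs with the same top transcript identifier against 100 divided by the number of transcripts, which scatter about the dashed line of equality; right, the SD of transcript shares by identifier (vertical) and in order of size (horizontal), with every point above the line of equality.

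Tests by identifier are therefore given as counts. No member transcript of 517 was called by edgeR in any of the 3 comparisons, where 0% of the 52965 transcripts tested were called. An unadjusted p under 0.05 was found for 14 of them in I/R against Sham, 19 in I/R + ML264 against I/R and 22 in I/R + ML264 against Sham, which is 2.71%, 3.68% and 4.26%, against 5.97%, 5.88% and 5.76% of all transcripts. DESeq2 called 6, 7 and 8 member transcripts, and 961, 892 and 859 of all. In limma's diffSplice test of usage, the change of a transcript against the rest of its gene, 1 of 508 member transcripts passed in I/R against Sham (0.15% of all), Srsf5-211. In I/R + ML264 against I/R 2 passed (0.179% of all), Rbm22-204 and Rbm3-210, and none did in I/R + ML264 against Sham (0.0976% of all), where 41 had an unadjusted p under 0.05. Srsf5-211 was at 0 in all 4 Sham libraries and at 18.5, 80.3, 43.2 and 27.8 CPM in I/R, which, for the reason above, is not read as a change of that transcript. On simulated data these tests by identifier found at most 1.3% of the changes put in, so few calls say nothing about how stable the transcripts were.

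Values in order of size were compared in their place, an analysis added after the identifiers had been examined: place 1 is the largest transcript value of a gene in a library, place 2 the next. A place need not be the same transcript in every library. In I/R against Sham, 14 of 377 member values (3.71%) were called by edgeR, 13 higher and 1 lower, where 2.36% of all 35521 values were called, 1.7% higher and 0.653% lower. The largest Ilf2 value was at 20.1, 20, 18.2 and 24.5 CPM in Sham, at 34.4, 42.1, 43.7 and 39.2 CPM in I/R, and at 23.6, 27.9, 28.7 and 28.4 CPM in I/R + ML264. Its log2 fold change against Sham was 0.93 ± 0.12 (edgeR, adjusted p = 0.00342). The largest Rbm5 value fell by 0.78 on the log2 scale (edgeR, adjusted p = 0.00913). Of the values called, all but place 5 of Hnrnpa2b1 belong to genes called as a whole, with places 4 to 8 of Srsf5 among them. Places of a gene are not independent of each other or of its sum, so the share largely restates the gene calls.

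In Srsf5, places 4 to 8 rose, with log2 fold changes of 1.40, 1.35, 1.32, 1.15 and 1.12. The other places tested did not pass: places 1 to 3 gave 0.27, 0.07 and 0.39, and the smallest values, places 9 and 10, gave 1.46 and 1.42 with edgeR adjusted p values of 0.128 and 0.29. Place 4 was at 12.1, 21.3, 25.8 and 9.12 CPM in Sham, at 46.8, 44.1, 43.2 and 48 CPM in I/R, and at 35.7, 37.6, 35.2 and 30 CPM in I/R + ML264. No library of either injured group reached down to the Sham range. Its edgeR adjusted p was 0.0161 for I/R against Sham and 0.185 for I/R + ML264 against Sham. The I/R against Sham call held in all 12 fits that left out 1 library, while places 5 to 8 lost theirs in 4 to 9 of them. The usage of places 4 to 8, their change against the rest of the gene, was not called in I/R against Sham (limma, adjusted p 0.181 to 0.813). Place 3 of Rbm28 was at 3.57, 3.55, 3.68 and 3.73 CPM in Sham, at 7.87, 5.9, 7.12 and 8.95 CPM in I/R, and at 6.28, 10.1, 6.35 and 6.84 CPM in I/R + ML264. It rose by 1.03 ± 0.19 against Sham (edgeR, adjusted p = 0.0166) and differed from I/R by 0.00 ± 0.18 with ML264, and its call was lost in 4 of the 12 fits. Its usage was not called in I/R against Sham (limma, adjusted p = 0.167). The other values called were place 1 of Hnrnpa3 (0.57), place 5 of Hnrnpa2b1 (0.67), places 1 and 6 of Rbm25 (0.41 and 0.80) and places 16 and 17 of Rbm39 (0.94 and 1.02). With ML264 against I/R no value of any gene was called (0%), with 56 member values (14.9%) at an unadjusted p under 0.05, against 8.71% of all. Against Sham, I/R + ML264 had no member value that passed (0.0619% of all values did), with 33 (8.75%) at an unadjusted p under 0.05, against 9.81% of all.

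The usage of a place, its change against the other places of the gene, was called in limma for 4 of 372 member values in I/R against Sham (0.593% of all), 1 in I/R + ML264 against I/R (0.192%) and 3 in I/R + ML264 against Sham (0.107%). Clk1 was among them although the level of the gene as a whole was 71.1 ± 6.65, 70.6 ± 2.99 and 67.9 ± 6.45 CPM in the 3 groups. Its second largest value made up 28.6%, 20.3%, 22.5% and 29.1% of the gene's counts in Sham, 13.4%, 18.7%, 16.8% and 16.4% in I/R, and 25.6%, 25.5%, 32.8% and 32.8% in I/R + ML264. The I/R libraries lay below all others. Usage changed by -0.88 ± 0.19 in I/R against Sham (limma, adjusted p = 0.00756) and by 1.11 ± 0.19 in I/R + ML264 against I/R (limma, adjusted p = 0.000904), which share the I/R libraries. The first was lost without Sham library 4 or without I/R library 1. Both were lost with edgeR's diffSpliceDGE, where the adjusted p of the second was 0.0898. The limma test treats the places of a gene as independent, although their shares depend on each other, so its p-values may be too small.

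In Rbm6, whose gene level was not called, place 4 held 3.88%, 9.39%, 5.62% and 8.29% of the counts in Sham, 11.8%, 15%, 10.7% and 12.6% in I/R, and 15.8%, 14.4%, 15% and 12.5% in I/R + ML264. Both injured groups lay above Sham throughout. Its usage rose by 0.96 ± 0.20 in I/R against Sham (limma, adjusted p = 0.00525) and by 1.18 ± 0.20 in I/R + ML264 against Sham (limma, adjusted p = 0.000441). The latter held in all alternatives run, while the former was lost in 3 of the 12 leave-one-out fits and with diffSpliceDGE. Place 1 of Rbm5 fell from 59.7% ± 0.843 to 51.7% ± 4.67 of the gene (SD, n = 4), by 0.47 on the log2 usage scale (limma, adjusted p = 0.0323). Place 2 of Srsf5 fell from 29.8% ± 1.8 to 20.7% ± 2.11, by 0.89 on that scale (limma, adjusted p = 0.0293). The Rbm5 call was lost in 5 and the Srsf5 call in 6 of the 12 leave-one-out fits, and each was lost with diffSpliceDGE. Place 2 of Rbm5 (0.69) and place 2 of Rbm6 (-0.72) were called in I/R + ML264 against Sham and lost their calls in 6 and 10 of the 12 leave-one-out fits.

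**Figure D4:**
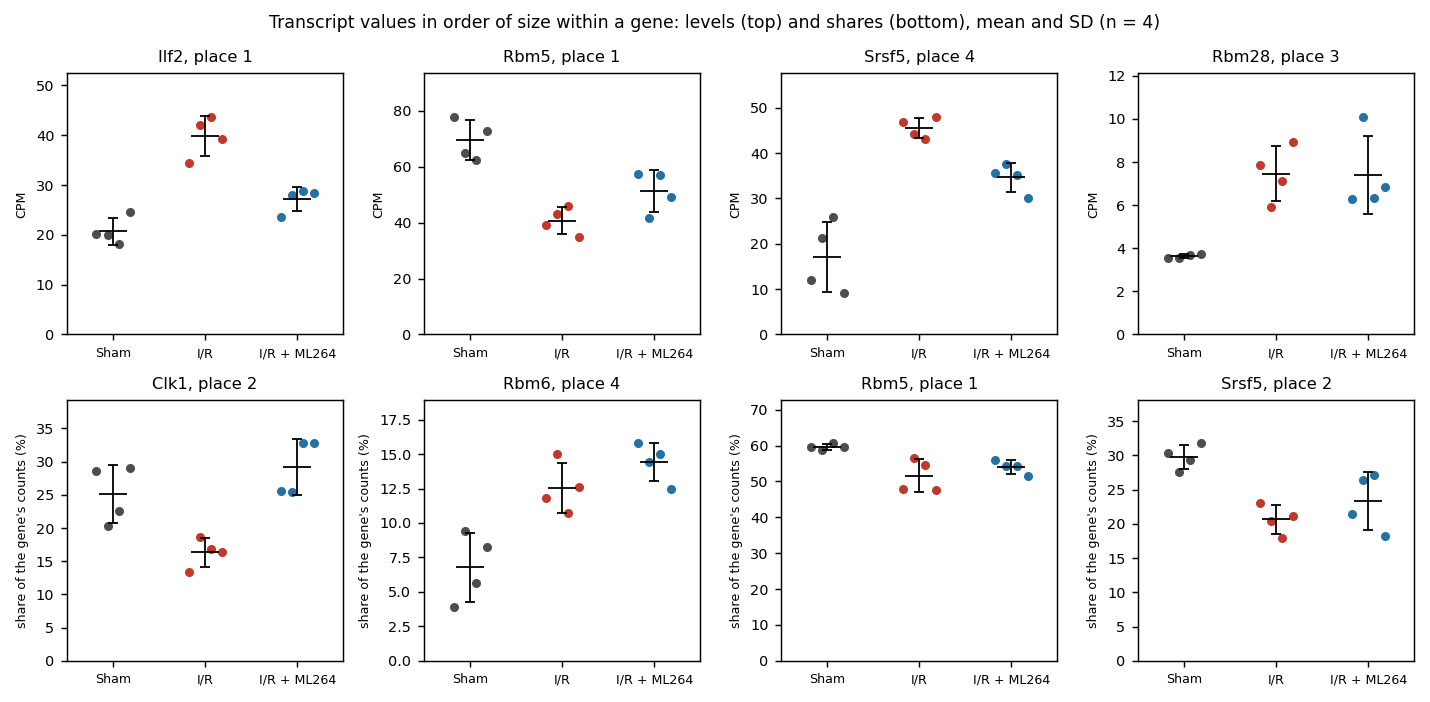
Top, CPM of 4 transcript values in order of size that were called in I/R against Sham; bottom, the share of a gene's counts held by 4 values whose usage was called (points, libraries 1 to 4 from left to right; bars, mean and SD, n = 4). Place 2 of Clk1 is lower in the 4 I/R libraries than in all others, and place 4 of Rbm6 is higher in all 8 injured libraries than in Sham.

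Transcripts known to be spliced by RBM20 were looked at in the same way. Of 17 such genes, 5 rose as whole genes in I/R against Sham (Trdn, Mlip, Lmo7, Pdlim5 and Pdlim3), where 4.58% of all genes did, and none fell. By usage in order of size, 5 of 169 values from 16 of these genes were called in I/R against Sham, where 0.593% of all values were. They were places 1 and 2 of Ttn, place 1 of Dst, and place 5 of both Ldb3 and Lmo7. The places of Ttn are parts of the same total and are not independent. The largest value of Ttn, the giant sarcomere spring, held 76.5%, 79.2%, 79.3% and 77.9% of its counts in Sham, 74.4%, 73.2%, 75.4% and 76.2% in I/R, and 76.1%, 78.3%, 75.5% and 78.4% in I/R + ML264. Every I/R library was below every Sham library, and the groups with and without ML264 overlapped. Usage fell by 0.26 on the log2 scale against Sham (limma, adjusted p = 2.64e-07) and rose by 0.17 ± 0.04 with ML264 against I/R (limma, adjusted p = 0.018). The second Ttn value rose by 0.39 ± 0.06 and changed by -0.30 ± 0.06 in these comparisons. The largest value of Dst, a cytoskeletal linker, fell by 0.52 (limma, adjusted p = 0.00167) and rose by 0.44 ± 0.10 (limma, adjusted p = 0.0274) on the same scale. Its share was 56.1% to 59.6% in Sham and 55.7%, 52.3%, 52.7% and 43.7% in I/R. In I/R + ML264 it was 54% to 59.1%, which overlaps I/R. The Ttn and Dst calls were not followed over the alternatives run, diffSpliceDGE included. Their limma p-values treat the places of a gene as independent, which they are not, and may be too small.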

How the data were processed

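The authors deposited 1 table of estimated counts per transcript for the 12 libraries, not normalized. GRCm38 (mm10), kallisto and FastQC are named per the submitters' processing notes; versions and the release of the annotation are not given there. Per the labels' protocols, libraries were made with Nextera XT, which does not mark strand, so reads of genes on opposite strands cannot be told apart where exons overlap (4.1% of Ilf2 exon bases with Snapin, 5.1% of Hnrnpk with Rmi1, 3.2% of Rbm10 with Ndufb11).

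The estimated counts were summed per gene symbol and rounded. Genes passing filterByExpr (minimum count 10) entered 1 model of the 3 groups in edgeR 4.0.16 (R 4.3.3), with a robust quasi-likelihood F-test after TMM scaling. Calls had a Benjamini-Hochberg adjusted p under 0.05 over all genes. Fold changes are log2 ± SE. Usage was tested with limma 3.58.1 (voom, diffSplice). That test pools the spread over all transcripts or places of a gene and treats them as independent. Shares of a gene depend on each other, so usage p-values may be too small. The common biological coefficient of variation was 0.205 for genes, 1.779 for transcripts by identifier and 0.314 for values in order of size. Coordinates and biotypes come from GENCODE M21, which held 553 of the 571 member transcripts. Genes with over 25% of their 31-base words in other genes are called uncertain.

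On simulated data for I/R against Sham, the gene test (15730 genes) found 56.6% of 2-fold and 95.8% of 8-fold changes, and the test by identifier (44183 transcripts) 0% of both; usage by identifier gave 0% and 1.3%. A test of the non-coding share of each gene (limma, pseudocount 0.5) found 0% of both and is not read. The test of values in order of size (34319) found 20.8% and 91.3% while places stayed fixed. With each gene's values put in order again after the draw, as in the real table, it found 10.4% and 45.1%, with 20 false calls and a median error of -0.378 and -1.186 on the log2 scale. Usage in order of size (30477, places fixed) found 15.9% and 78%, with 48 false calls, of which 12 were in genes where nothing was changed and the rest at other places of changed genes. The members and lists were chosen with earlier results of these data known. Named are all called members, the SR and CLK genes tested and a set of members chosen for their known roles; 1 other member and 1 listed gene are not reported here. Same-numbered libraries did not deviate together (correlations -0.11 to 0.097), so the numbers were not taken to pair them. Alternatives were DESeq2 1.42.0, other factors, no filter, a replicate block, Ddx3y or Arntl as a covariate, only the 2 groups compared, other count minimums, and each library left out.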

Additional observations from a re-analysis of the deposited data

Results flagged for a closer look

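In 9 of the 153 groups of 4 libraries checked, 1 library stood apart from the other 3 by more than the 95% critical value of Dixon's test; chance flags about 1 in 20 groups, or 7.65 here. At the gene level, Ilf2 was at 36 CPM in I/R + ML264 library 1 and at 42.9 to 43.3 CPM in the other 3, which places that library within the Sham range. Hnrnpa1 was at 66 CPM in I/R + ML264 library 2, against 58.6 to 59.7 CPM. Hnrnpa2b1 was at 308 CPM in I/R library 4, against 261 to 267 CPM, and Srsf1 at 71 CPM in the same library, against 77.1 to 78.2 CPM. Hnrnpl was at 47.4 CPM in I/R library 1, against 35.7 to 37.3 CPM. Among values in order of size, place 1 of Ilf2 was at 23.6 CPM in I/R + ML264 library 1 (27.9 to 28.7 in the others), and place 1 of Rbm25 at 20 CPM in Sham library 3 (23.8 to 24.4). Place 3 of Rbm28 was at 10.1 CPM in I/R + ML264 library 2 (6.28 to 6.84), and place 2 of Rbm6 at 11.4 CPM in I/R + ML264 library 1 (12.1 to 12.3).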

How the results depend on the processing

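No member called at the gene level, and no member value called in order of size, changed direction under the alternatives run for it; other named genes were not followed. Members called in I/R against Sham (12) numbered 5 with Ddx3y as a covariate and 6 to 14 with 1 library left out. Calls over all genes moved too, from 1236 of 15952 to 565 with that covariate and to 659 to 1485 with 1 library left out. In I/R + ML264 against I/R (2) the member count was 0 with only the 2 groups compared and 0 with the replicate block, and 0 to 3 with 1 library left out. Over all genes, where the main fit called 8, these counts were 6, 1 and 0 to 85. In I/R + ML264 against Sham the member count was 0 throughout. DESeq2 called 6, 7 and 8 member transcripts by identifier in the 3 comparisons, where edgeR called 0, also with 1 library left out; in order of size the first count was 14. Usage by identifier in I/R against Sham (1) was called for 0 with diffSpliceDGE, 0 at a minimum count of 30 and 4 in order of size, and for 1 to 3 with 1 library left out. In I/R + ML264 against I/R (2) it was called for 0 with diffSpliceDGE, 0 with the replicate block, 0 at a minimum count of 30 and 1 in order of size, and for 0 to 2 with 1 library left out. In I/R + ML264 against Sham (0) it was called for 3 in order of size, and for 0 to 2 with 1 library left out. Values in order of size called in I/R against Sham (14) were 8 with the replicate block and 4 to 17 with 1 library left out. Usage in order of size (4, 1 and 3) was called for 0, 0 and 1 with diffSpliceDGE, and for 1 to 4, 1 and 1 to 3 with 1 library left out. Apart from the counts with fewer libraries, the cause was not tested. The replicate block changed no other count by more than 1.5 times. Estimated counts carry no measure of how surely reads were divided among transcripts, and 4 libraries a group limit what small changes can be called.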
